A study of Rattus norvegicus with 15 samples.

Results

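The second week of culture with retinoic acid (RA) was followed by comparing H9c2 cultures after 14 days with RA (T14+RA) with cultures after 7 days with RA (T7+RA), 3 cultures at each time. Members were all libraries whose labels gave RA and day 7 or day 14, which were 6 of the 15 RNA-seq libraries of the series, and all 11574 genes of the deposited count table were tested in them. H9c2 is a wild-type myoblast line from embryonic rat ventricle. Sample titles name H9c2 throughout, although the cell line entry of the labels differs from sample to sample, and all cultures were taken here as the same line. The cells had been seeded in high-serum medium, left to attach for a day, and then moved to low-serum medium. All-trans-RA at 1 µM was added daily in the dark to the T7+RA and T14+RA cultures, from a stock in DMSO, and the sources used here do not state that the cultures without RA received DMSO. The same second week without RA, T14-RA against T7-RA with 3 cultures each in the same low-serum medium, was the comparison set beside it, and 3 cultures sampled before differentiation (T0, day 0) gave the starting level. Read totals ran from 544558 to 1030820 in the 6 libraries with RA and from 508397 to 1030820 in all 15, with a median of 22 reads per gene and library, so that small changes of low genes were not detectable at this depth.

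Myoblasts that leave the cell cycle fuse into myotubes, which assemble sarcomeres from thick (myosin) and thin (actin, troponin, tropomyosin) filaments and couple membrane depolarisation to calcium release from the sarcoplasmic reticulum. Maturing myotubes also build up creatine kinase, muscle glycolytic isoenzymes and mitochondria. RA acts through nuclear RA receptors that bind DNA as partners of retinoid X receptors, and cells exposed to it induce CYP26 enzymes, which break RA down.

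The libraries were first compared with each other. Within T14+RA, replicate 2 was tilted to short transcripts and replicate 3 to long ones. Across 5931 genes with at least 10 reads in every library, the Spearman correlation between a gene's deviation from its group mean and its transcript size (the largest size in the table) was -0.43 in replicate 2, 0.35 in replicate 3 and 0.09 in replicate 1, and it lay between -0.07 and 0.05 in the 3 T7+RA cultures. The same tilt by replicate number was in the other groups, with -0.461, -0.25 and -0.295 for replicate 2 of T0, T7-RA and T14-RA and 0.317, 0.211 and 0.142 for their replicate 3. The second-week change with RA itself ran with size, with a Spearman correlation of -0.24 across those genes, -0.13 without T14+RA replicate 2 and -0.31 without T14+RA replicate 3. Its median was 0.09 on the log2 scale in the shortest of 3 size classes of genes and -0.10 in the longest. Without RA the correlation with size was -0.03. The counts of the sarcomere, mitochondrial, mitosis and lysosome lists are therefore given also without 1 of these libraries and after the size trend was removed from each library, an alternative chosen after seeing the data. With the trend removed, 1465 genes were called in the second week with RA, and 91.7% of the 1315 genes called without that step remained called.

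**Figure D1:**
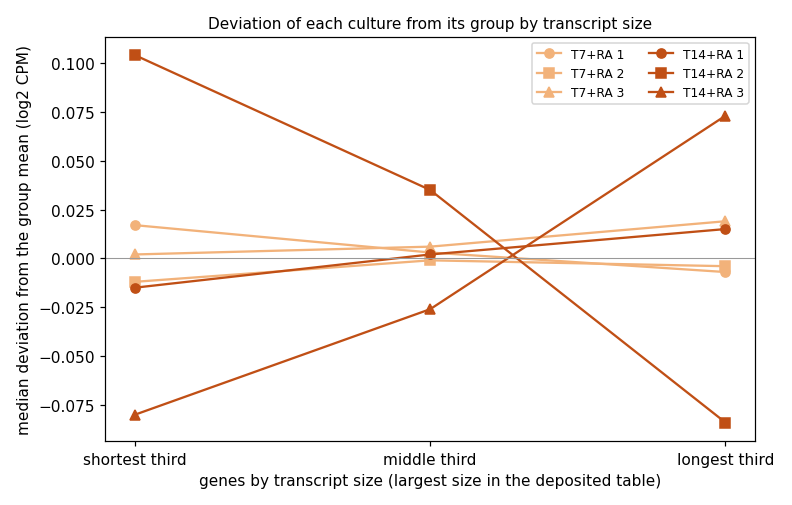
Median deviation of each culture from the mean of its group (log2 CPM) for genes in the shortest, middle and longest of 3 classes of transcript size, in the 3 T7+RA and 3 T14+RA cultures. T14+RA replicate 2 falls from 0.10 to -0.08 and T14+RA replicate 3 rises from -0.08 to 0.07, and the other 4 cultures stay within 0.02 of 0 in every class.

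The labelled cell type was checked against marker lists. Of 9 skeletal muscle markers, 9 were measured, and their summed level was 1857 to 2278 CPM (counts per 1000000 reads, with library totals scaled by TMM factors) at T7+RA and 6103 to 7181 CPM at T14+RA, with 7 rising and Myod1 falling. Of 10 cardiomyocyte markers only Gata4 and Hand2 were measured, with a sum of 14.8 to 25.7 CPM at T7+RA and 18.1 to 25.1 CPM at T14+RA, and neither was called. Of 8 leukocyte markers 0 were measured, of 7 endothelial markers 1 was measured at no more than 3.4 CPM, and of 7 adipocyte markers 1 was measured at no more than 3.4 CPM. Fibroblast markers, 4 measured of 7, summed to 22611 to 25743 CPM at T7+RA and 18448 to 23488 CPM at T14+RA, and 1 of them (Dcn) rose. Smooth muscle markers, 6 of 6 measured, held 1 fall (2 without T14+RA replicate 2 and 3 with the size trend removed), cartilage and bone markers, 3 of 9 measured, 1 fall (0 without T7+RA replicate 1 or 3 or T14+RA replicate 2), and neural (3 of 6) and epithelial markers (1 of 6) 0 calls. In these bulk cultures fewer cells of one kind and less RNA per cell cannot be told apart, which holds for every result.

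Between T7+RA and T14+RA, 655 genes rose and 660 fell, that is 1315 genes or 11.4% of all genes tested, 5.66% up and 5.70% down. The test was edgeR's quasi-likelihood test with Benjamini-Hochberg adjustment over all genes at an adjusted p under 0.05. Every adjusted p in the text comes from it unless another test or setting is named. At an adjusted p under 0.001, 540 genes (4.67%) were called. The median change of all genes was 0.01 on the log2 scale. The 3 and 3 cultures did not overlap in 28.0% of all genes, and in 1282 of the 1315 called. Each list of genes below is described by its counts, to be read against 5.66% up and 5.70% down over all genes.

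**Figure D2:**
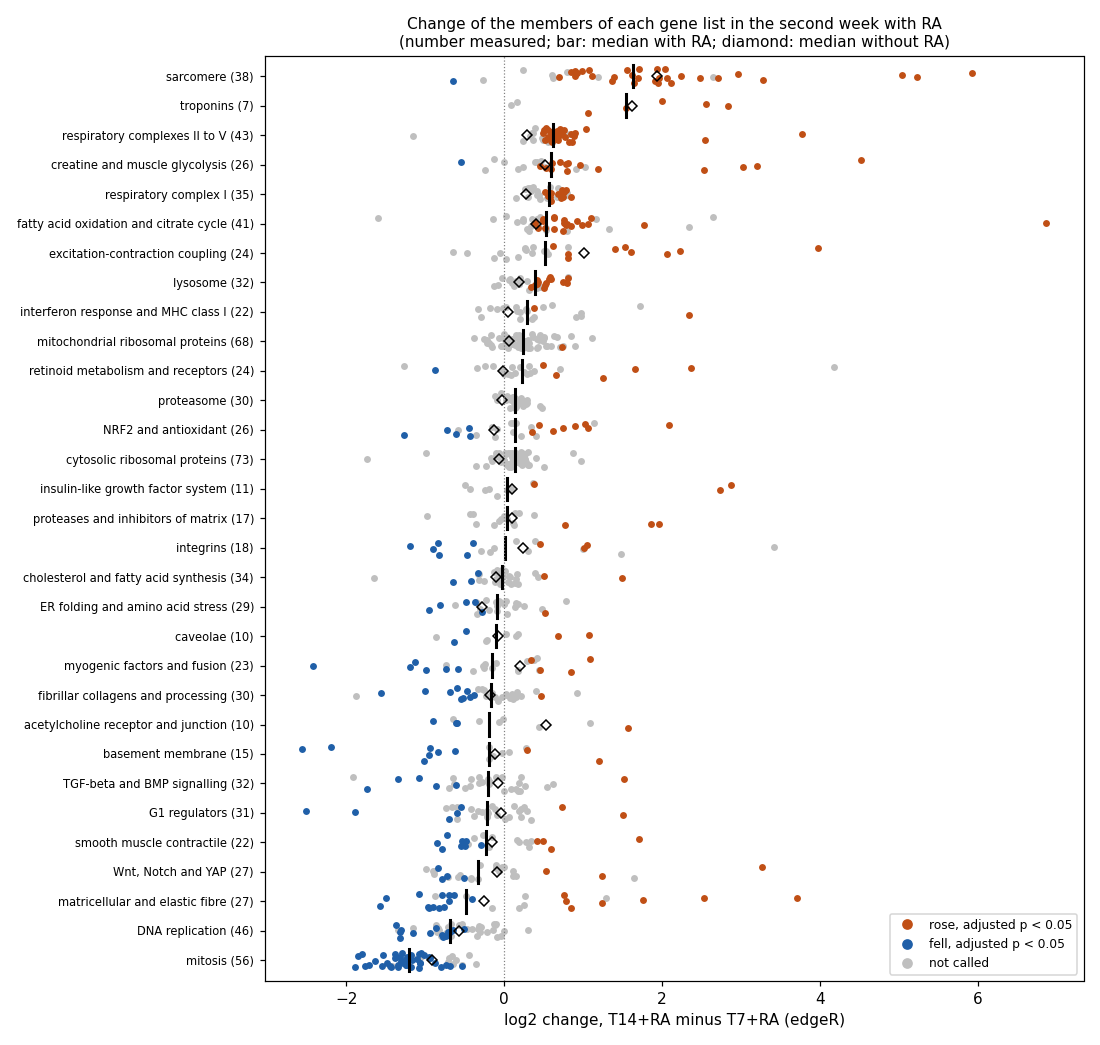
Change of each measured member of 31 gene lists in the second week with RA (log2 scale, T14+RA minus T7+RA), coloured by call, with the median with RA as a bar and the median of the same genes without RA as a diamond. The sarcomere list, with a median of 1.63, and the troponin list, with 1.54, lie to the right, and the mitosis list, with -1.20, to the left.

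Most sarcomere genes rose. Of 38 measured members, 30 rose and 1 fell, with a median change of 1.63 (1.48 with the members at 0 reads in every T7+RA library set at their lower bound of 3 reads per library, and 0.951 among members with at least 10 reads in every library). Tnnt3 (1q41), fast skeletal troponin T, had the lowest p of all genes. It stood at 149.7, 144 and 175 CPM in the 3 T7+RA cultures and at 884, 913 and 948 CPM in the 3 T14+RA cultures. The T14+RA values sit several times above every T7+RA value with no overlap, a log2 change of 2.56 ± 0.12 (SE, n = 3 and 3, adjusted p = 2.14e-27). The other fast skeletal troponins moved with it, Tnni2 (troponin I) from 28.5, 21.5 and 18.9 CPM to 132, 207 and 169 CPM and Tnnc2 (troponin C) by 1.54 ± 0.10 (adjusted p = 3.14e-19). Tnnt2, the cardiac troponin T that embryonic skeletal muscle also makes, rose by 1.06 ± 0.11 (adjusted p = 4.76e-12), from 312, 306 and 283 CPM to 607, 680.5 and 598 CPM. Tnnc1, the slow and cardiac troponin C, read 1222, 1112 and 1215 CPM at T7+RA and 1359, 1471 and 1148 CPM at T14+RA, and its groups overlapped (log2 change 0.17 ± 0.13, adjusted p = 0.511). Of the 7 troponins measured, 5 rose and 0 fell.

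Acta1 (19q12), skeletal alpha-actin, went from 352, 458 and 490.2 CPM to 1453, 1748 and 1764 CPM. Mylpf (1q37), the fast regulatory light chain, went from 328, 305 and 444 CPM to 1212, 1509 and 1459 CPM. Myh3 (10q24), the embryonic myosin heavy chain, went from 546, 521 and 670.2 CPM to 1747, 1757 and 2119 CPM. For these 3 filament genes the lowest T14+RA culture lay above the highest T7+RA culture, with log2 changes of 1.93 ± 0.11, 1.96 ± 0.11 and 1.70 ± 0.10 and adjusted p of 7.84e-23, 1.8e-22 and 2.74e-21. Myl1 (9q32), the fast essential light chain, was counted in 3 reads over the T7+RA libraries and 138 over the T14+RA libraries, a ratio of 42.0 with an exact 95% interval of 14.07 to 206 that covers counting error only, and its fitted log2 change of 5.23 became 6.05 without T7+RA replicate 1 and 4.63 without T7+RA replicate 2. Myl4, the embryonic and atrial essential light chain, rose by 2.03 ± 0.21 (adjusted p = 1.06e-10), and Myom2, an M-band protein, by 2.06 ± 0.28 (adjusted p = 4.3e-08). Pdlim5, a Z-disc adaptor, was the only sarcomere member that fell, from 139.7, 158 and 146 CPM to 95.5, 99.0 and 87.0 CPM (-0.65 ± 0.15, adjusted p = 0.00143). Without T14+RA replicate 2 the list held 29 rises and 1 fall, without T14+RA replicate 3 27 and 1, and with the size trend removed 30 and 1.

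Among 24 measured genes of excitation-contraction coupling, 9 rose and 0 fell, with a median change of 0.52, or 0.282 among members with at least 10 reads in every library. Trdn (1p11), triadin of the calcium release complex, was at 7.13, 4.03 and 0 CPM and then 66.6, 66.0 and 59.8 CPM, and Ryr1, the skeletal ryanodine receptor, at 25.7, 26.8 and 24.0 CPM and then 134, 86.4 and 138 CPM. Both were higher in every T14+RA culture than in any T7+RA culture (log2 changes 3.97 ± 0.39 and 2.23 ± 0.26, adjusted p = 3.29e-12 and 6.77e-08), and the change of Trdn was 4.73 without T7+RA replicate 1. Atp2a2, the SERCA2 calcium pump that refills the reticulum, rose from 974, 950.4 and 920.4 CPM to 1625, 1548 and 1813 CPM (0.81 ± 0.09, adjusted p = 1.75e-10). Hrc, a calcium-binding protein of the reticulum, rose by 1.61 ± 0.25 (adjusted p = 1.17e-06). The pore subunits of the L-type calcium channel rose as well, the skeletal Cacna1s by 1.53 ± 0.37 (adjusted p = 0.00234) and the cardiac Cacna1c by 0.81 ± 0.18 (adjusted p = 0.000892). Casq1, the fast-fibre calcium store protein calsequestrin, read 12.8, 22.8 and 27.4 CPM at T7+RA and 32.8, 26.7 and 29.0 CPM at T14+RA, overlapping groups with no call (0.53 ± 0.29, adjusted p = 0.28). Sln, sarcolipin, an inhibitor of the calcium pump, read 1.43, 1.34 and 5.14 CPM and then 7.72, 20.4 and 5.44 CPM (2.06 ± 0.64, adjusted p = 0.0219), and the call was lost without T14+RA replicate 2 (1.41, adjusted p = 0.28) and without T7+RA replicate 1 or 2, while it was 2.82 without T7+RA replicate 3.

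The myogenic factors did not move as one. Myog, myogenin, which drives terminal differentiation, rose from 295, 341 and 312 CPM to 540.2, 621 and 547 CPM (0.85 ± 0.11, adjusted p = 8.62e-09), while Myod1, the factor that sets the myoblast state, fell from 135, 161 and 149 CPM to 61.7, 77.0 and 56.2 CPM (-1.19 ± 0.18, adjusted p = 7.69e-07). In neither did the groups overlap. Of 23 measured genes of myogenic factors and fusion, 4 rose and 6 fell, with a median of -0.16, or -0.087 with the size trend removed. Adam12 (1q41), a metalloprotease of fusing myoblasts, fell from 224, 251 and 229.7 CPM to 53.1, 28.3 and 45.3 CPM (-2.42 ± 0.19, adjusted p = 4.91e-14). Cdh15, the myoblast cadherin, fell by 0.99 ± 0.11 (adjusted p = 1.03e-10), and Bin1, which shapes the T-tubules of muscle, rose by 1.09 ± 0.14 (adjusted p = 5.69e-09). In the list of the acetylcholine receptor and junction, 1 of 10 measured genes rose and 3 fell. Chrnd, the delta subunit, rose from 49.9, 51.0 and 44.6 CPM to 139.9, 145 and 152 CPM (1.57 ± 0.18, adjusted p = 6.57e-10). Chrnb1, the beta subunit, fell from 128, 125 and 139 CPM to 102, 80.2 and 65.3 CPM (-0.61 ± 0.17, adjusted p = 0.00853), a call lost without T14+RA replicate 3 (-0.50, adjusted p = 0.057). The count of falls in that list was 1 without T14+RA replicate 2 or 3, and that of rises was 2 without T7+RA replicate 1 or T14+RA replicate 1.

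Promoters of muscle genes are shown because the genes rose together and the E-box is the element bound by myogenic factors. RefSeq promoter sequences (build GRCr8, 250 bases before to 50 bases after the start of each gene) were matched to 8863 of the 11574 genes (76.6%), and to 25 of the 30 sarcomere genes that rose. The E-box CAGCTG, which reads the same on both strands, was in 9 of these 25 (36.0%), in 15.6% of the matched genes, in 23.3% of the 506 matched genes that rose and in 15.1% of all 27457 promoters of the table. The other motifs searched were in fewer of the 25, with 8 holding CCAAT, 4 TTTGAA, 1 the nuclear receptor half-site AGGTCA (4.0%, against 11.1% of matched genes and 12.3% of those that rose) and 1 CACGTG (4.0%, against 9.82%). A match is a description of letters, not a bound site. The 250 bases upstream of the start of skeletal alpha-actin (Acta1, chr19:68784195-68784444, minus strand) and of muscle creatine kinase (Ckm, chr1:88189211-88189460, plus strand) are printed 5′ to 3′ with each CAGCTG in capitals, 1 in Acta1 and 2 in Ckm.
Acta1: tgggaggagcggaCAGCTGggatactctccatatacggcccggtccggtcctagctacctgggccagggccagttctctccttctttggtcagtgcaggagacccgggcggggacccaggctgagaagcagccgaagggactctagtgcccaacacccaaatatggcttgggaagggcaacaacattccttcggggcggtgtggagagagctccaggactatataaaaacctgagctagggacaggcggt
Ckm: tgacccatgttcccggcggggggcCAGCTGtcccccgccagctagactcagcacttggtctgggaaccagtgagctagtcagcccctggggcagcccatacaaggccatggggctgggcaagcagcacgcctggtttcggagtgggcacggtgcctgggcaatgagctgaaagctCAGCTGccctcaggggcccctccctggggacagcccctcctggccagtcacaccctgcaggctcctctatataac
The first letter of the E-box lay 237 bases upstream in Acta1, and 226 and 75 bases upstream in Ckm.

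Creatine kinases and muscle glycolytic enzymes gave mostly rises among their calls. Of 26 measured genes, 14 rose and 1 fell, with a median of 0.60, and the count of falls was 0 without T7+RA replicate 1, whereas it was 2 with the size trend removed. Ckm, whose promoter is printed above, went from 4.28, 12.1 and 8.57 CPM to 58.8, 73.9 and 79.8 CPM (3.02 ± 0.35, adjusted p = 1.16e-09). The mitochondrial sarcomeric creatine kinase Ckmt2 was counted in 2 and 59 reads, a ratio of 26.9 with an exact 95% interval of 7.129 to 227.5, and its fitted log2 change of 4.52 became 7.19 without T7+RA replicate 1, which held both reads. Pygm, muscle glycogen phosphorylase, stood at 31.4, 24.2 and 25.7 CPM and then 134, 159 and 189 CPM (2.53 ± 0.23, adjusted p = 1e-12). Aldoa, the aldolase of muscle glycolysis, rose by 0.81 ± 0.08 (adjusted p = 1.2e-11), Hk2, the hexokinase of insulin-responsive tissue, by 1.19 ± 0.13 (adjusted p = 4e-11), and Ldhb, the heart-type lactate dehydrogenase subunit, by 0.96 ± 0.10 (adjusted p = 2.66e-11).

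Mitochondrial genes gave rises and no falls. In complexes II to V, with cytochrome c, 32 of 43 measured genes rose and 0 fell (median 0.61), and in complex I 13 of 35 rose and 0 fell (median 0.56). Atp5f1b, the beta subunit of ATP synthase, read 1779, 1812 and 1861 CPM at T7+RA and 2662, 2984 and 2656 CPM at T14+RA (0.61 ± 0.08, adjusted p = 9.61e-08). Ndufv1, a core subunit of complex I, read 113, 128 and 120.0 CPM and then 189, 215 and 194 CPM (0.72 ± 0.14, adjusted p = 7.32e-05). Ndufa4 and Atp5mc3 rose by 0.73 ± 0.15 (adjusted p = 0.000128) and 0.86 ± 0.12 (adjusted p = 9.25e-08). The muscle isoforms of cytochrome c oxidase also rose, Cox8b from 2.85, 4.03 and 1.71 CPM to 37.6, 50.3 and 41.7 CPM (3.77 ± 0.42, adjusted p = 1.75e-10) and Cox6a2 from 15.7, 20.1 and 32.6 CPM to 100.3, 152 and 149 CPM (2.54 ± 0.26, adjusted p = 9.54e-11). Of the 35 complex I genes 33, and of the 43 genes of complexes II to V 37, lay in the shortest class of transcript size (at most 1746 bases), the class that was high in T14+RA replicate 2. The summed level of complex I was 2313 to 2430 CPM at T7+RA and 3328, 3813 and 3287 CPM in T14+RA replicates 1, 2 and 3. Without replicate 2, 9 complex I genes and 26 genes of complexes II to V rose, without replicate 3 15 and 32 rose, and with the size trend removed from each library 10 and 29 rose (medians 0.39 and 0.50), again with 0 falls. Cytosolic ribosomal proteins, with 69 of 73 in the same size class, had a median of 0.13 with 0 of 73 called, a median of 0.02 without T14+RA replicate 2, and a median of -0.04 with 3 falls when the size trend was removed.

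Fatty acid oxidation and the citrate cycle moved the same way, with 20 of 41 measured genes rising and 0 falling (median 0.53). The rises were 14 without T14+RA replicate 2, 18 without T14+RA replicate 3 and 21 with the size trend removed. Hadhb and Hadha, the subunits of the trifunctional protein of fatty acid oxidation, rose by 0.80 ± 0.10 (adjusted p = 7.04e-09) and 0.63 ± 0.10 (adjusted p = 2.21e-06). Pdk4 (4q13), the kinase that switches off pyruvate dehydrogenase, had 0 reads in every T7+RA library. At T14+RA it read 20.3, 23.6 and 19.9 CPM, from 21, 15 and 11 reads. With each T7+RA library set at 3 reads, that is at least 4.74-fold higher. Pdk4 also had 0 reads in all 9 libraries of T0, T7-RA and T14-RA, so that its reads came from the 3 T14+RA libraries alone. It thus passed the filter of the deposited table, at least 21 counts over the libraries, only through T14+RA. Its rise, 1 of the 20 in the list, is given as a description without a p.

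Most mitosis genes fell. Of 56 measured mitosis genes, 44 fell and 0 rose, with a median of -1.20. Their summed level was 4244 to 4321 CPM in the T7+RA cultures and 1778 to 2032 CPM in the T14+RA cultures. Top2a (10q31), the topoisomerase that untangles chromosomes, read 255, 244 and 229.7 CPM and then 95.5, 91.2 and 109 CPM (-1.31 ± 0.13, adjusted p = 9.04e-12). Cenpf (13q26), a kinetochore protein, read 195, 187 and 185 CPM and then 79.1, 47.1 and 61.6 CPM (-1.54 ± 0.17, adjusted p = 9.54e-11). Every T14+RA culture was below every T7+RA culture in both genes. Anln and Prc1, which build the contractile ring and the spindle midzone of dividing cells, fell by 1.54 ± 0.19 (adjusted p = 4.87e-09) and 1.22 ± 0.16 (adjusted p = 2.75e-08). Racgap1, of the midzone, fell too (-1.89 ± 0.38, adjusted p = 0.000164, and -1.55 without T14+RA replicate 1). Genes outside the list that were named for the size of their fall were Kif14, a midzone kinesin (-2.28 ± 0.39, adjusted p = 1.01e-05, and -3.22 without T14+RA replicate 1), Iqgap3, a scaffold of dividing cells (-2.01 ± 0.27, adjusted p = 4.42e-08), and Plk4, the kinase of centriole duplication (-1.98 ± 0.35, adjusted p = 1.29e-05). Without T14+RA replicate 2 the mitosis list held 38 falls, without replicate 3 40, and with the size trend removed 45, each with 0 rises.

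DNA replication genes gave fewer calls. Of 46 measured genes, 14 fell and 0 rose, with a median of -0.69 and summed levels of 2402 to 2583 CPM and then 1597 to 1634 CPM. Rrm2, the regulated subunit of ribonucleotide reductase, read 79.8, 79.2 and 77.1 CPM and then 28.0, 33.0 and 36.3 CPM (-1.31 ± 0.21, adjusted p = 1.62e-06). Uhrf1, which maintains DNA methylation behind the fork, fell by 1.16 ± 0.19 (adjusted p = 3.23e-06), and Pole, a replicative polymerase, by 1.38 ± 0.25 (adjusted p = 2.15e-05). The helicase subunits Mcm6 and Mcm2 fell by 0.77 ± 0.16 (adjusted p = 0.000196) and 0.65 ± 0.17 (adjusted p = 0.00503). Among 31 G1 regulators 2 rose and 5 fell, and 2 fell without T7+RA replicate 2 and 3 without T7+RA replicate 1 or T14+RA replicate 1. Ccnd1, cyclin D1, read 1502, 1513 and 1454 CPM and then 1012, 912 and 812 CPM (-0.70 ± 0.09, adjusted p = 1.42e-08), and Gadd45a, a growth arrest gene, read 204, 159.8 and 204 CPM and then 489, 605 and 517 CPM (1.51 ± 0.12, adjusted p = 6.54e-16).

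Promoters of mitosis genes are shown because 44 of the list fell together and 2 elements are known for them, the CCAAT box, bound by NF-Y, and TTTGAA, the core of the CHR element. Of the 38 mitosis genes that fell and had a matched promoter, 30 (78.9%) held CCAAT on either strand, 27 (71.1%) held TTTGAA and 23 (60.5%) held both. Over all matched genes the shares were 38.2%, 11.5% and 4.67%, and over all promoters in the RefSeq set 37.7%, 18.1% and 7.25%. Over the 539 matched genes that fell they were 44.2%, 17.6% and 10.2%. The 12 DNA replication genes that fell and were matched held CCAAT in 8 (66.7%) and TTTGAA in 1 (8.33%). Of the 38 mitosis genes, 4 held CAGCTG, 7 AGGTCA (18.4%, against 11.1% of matched genes) and 2 CACGTG. The 250 bases upstream of Top2a (chr10:84473094-84473343, minus strand), Prc1 (chr1:143659231-143659480, plus strand) and Anln (chr8:29197514-29197763, minus strand) are printed 5′ to 3′, with CCAAT and TTTGAA in capitals on whichever strand they lie (ATTGG and TTCAAA are their reverse complements).
Top2a: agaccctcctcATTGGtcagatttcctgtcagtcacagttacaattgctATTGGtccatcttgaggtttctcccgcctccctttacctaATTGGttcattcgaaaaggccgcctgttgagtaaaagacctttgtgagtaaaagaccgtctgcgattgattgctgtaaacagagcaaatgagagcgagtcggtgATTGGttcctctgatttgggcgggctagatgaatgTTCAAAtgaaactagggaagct
Prc1: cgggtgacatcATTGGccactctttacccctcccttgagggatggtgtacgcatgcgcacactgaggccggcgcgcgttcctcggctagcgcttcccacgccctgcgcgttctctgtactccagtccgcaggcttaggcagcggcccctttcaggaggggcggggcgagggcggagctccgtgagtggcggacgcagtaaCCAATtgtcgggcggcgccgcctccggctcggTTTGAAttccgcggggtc
Anln: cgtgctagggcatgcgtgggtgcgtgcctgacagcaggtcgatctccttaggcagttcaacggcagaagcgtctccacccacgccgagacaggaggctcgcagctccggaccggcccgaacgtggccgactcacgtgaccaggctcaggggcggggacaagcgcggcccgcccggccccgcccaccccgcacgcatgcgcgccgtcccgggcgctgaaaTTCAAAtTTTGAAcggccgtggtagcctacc
Top2a held 4 CCAAT boxes, with TTTGAA 22 bases before the start. Prc1 held 2 CCAAT boxes, with TTTGAA 18 bases before the start. Anln held 2 copies of TTTGAA, 1 on each strand, 31 and 24 bases before the start, and no CCAAT in this window.

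**Figure D3:**
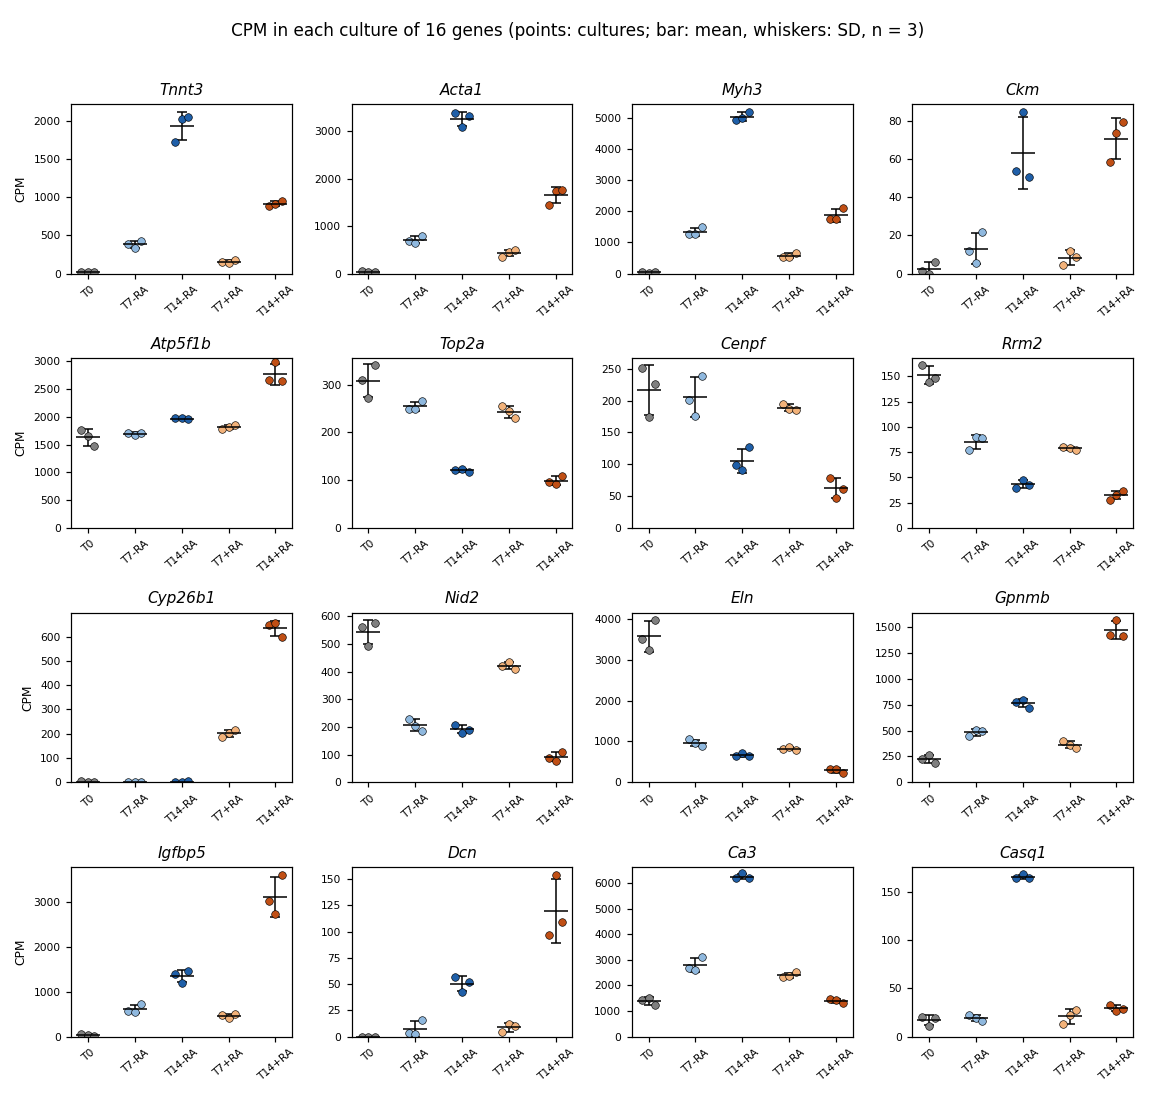
CPM of 16 genes in each of the 15 cultures, by group, with the mean as a bar and the SD as whiskers (n = 3). The T7+RA and T14+RA cultures do not overlap in any panel but that of Casq1, and Ca3 falls with RA while it rises without.

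The RA-handling genes were measured next. Cyp26b1 (4q34), an RA-degrading enzyme, was at 5.52, 1.88 and 0 CPM in the T0 cultures, at 187, 203 and 214 CPM at T7+RA and at 648, 655 and 596 CPM at T14+RA. The second week added a further log2 change of 1.66 ± 0.12 (adjusted p = 2.11e-17) to the level reached in the first. Without RA it read 2.39, 0 and 0 CPM at T7-RA and 0, 0 and 3.39 CPM at T14-RA, so every culture with RA lay far above every culture without. Dhrs3, a reductase that turns retinal back to retinol, read 298, 289 and 291 CPM and then 422, 432 and 377 CPM (0.49 ± 0.11, adjusted p = 0.00108), a call that limma-trend did not make (adjusted p = 0.285). Aox1, an aldehyde oxidase that can act on retinal, rose by 2.37 ± 0.38 (adjusted p = 2.69e-06), and Dhrs9, a retinol dehydrogenase, fell by 0.88 ± 0.18 (adjusted p = 0.000262). Rdh5, another retinol dehydrogenase, was called (1.25 ± 0.36, adjusted p = 0.0134), but not without T14+RA replicate 2 (0.95, adjusted p = 0.157) or T7+RA replicate 1 or 2. Of 24 measured genes of the list, 5 rose and 1 fell, with a median of 0.23 (0.117 with at least 10 reads in every library), and 3 rose without T14+RA replicate 2 or without T7+RA replicate 1.

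Matrix genes moved in both directions. Basement membrane genes gave 7 falls and 2 rises among 15 (median -0.20), with 0 rises without T7+RA replicate 2 or T14+RA replicate 1 and 1 without any other of the 6 cultures. Nid2 (15p16), nidogen-2, which links laminin to collagen IV, read 419, 435 and 409.6 CPM and then 88.7, 78.6 and 111 CPM (-2.20 ± 0.13, adjusted p = 1.22e-21). Nid1, its paralog, read 2216, 2353 and 2322 CPM and then 1208, 1006 and 1189 CPM (-1.02 ± 0.09, adjusted p = 7.52e-14). Both nidogens were separated without overlap. Col4a1, a collagen IV chain, fell by 0.95 ± 0.09 (adjusted p = 3.82e-12), and Smoc1, a calcium-binding basement membrane protein, by 2.56 ± 0.46 (adjusted p = 2.17e-05), with a change of -3.20 without T14+RA replicate 1.

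Among 27 matricellular and elastic fibre genes, 13 fell and 7 rose (median -0.48). Eln (12q12), elastin, read 821, 863 and 795 CPM and then 323, 327 and 221 CPM (-1.49 ± 0.11, adjusted p = 1.61e-17), and Fn1, fibronectin, read 8248, 8749.9 and 8697 CPM and then 4786, 3898 and 5123 CPM (-0.90 ± 0.09, adjusted p = 5.76e-10). Small proteoglycans and a thrombospondin went the other way. Dcn (7q13), decorin, read 4.28, 12.1 and 10.3 CPM and then 96.5, 154 and 109 CPM (3.71 ± 0.32, adjusted p = 3.88e-13), and Fmod, fibromodulin, read 17.1, 21.5 and 22.3 CPM and then 113, 132 and 109 CPM (2.53 ± 0.25, adjusted p = 1.16e-10). Thbs2, thrombospondin-2, rose by 1.76 ± 0.23 (adjusted p = 2.75e-08). Of 30 genes of fibrillar collagens and their processing, 9 fell and 1 rose (median -0.17), and 11 and 2 with the size trend removed (median -0.064). The falls included the collagen-modifying enzymes P4ha3 (-1.56 ± 0.21, adjusted p = 1.99e-08), Loxl2 (-0.68 ± 0.11, adjusted p = 1.75e-06) and Lox (-0.47 ± 0.10, adjusted p = 0.000253), and the rise was Col3a1, a collagen III chain, from 3937, 4104 and 4038 CPM to 5986, 5819.5 and 4828 CPM (0.46 ± 0.08, adjusted p = 2.58e-05).

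Of 17 matrix proteases and inhibitors 3 rose and 0 fell (median 0.04, and -0.05 without T14+RA replicate 1), among them Mmp2, gelatinase A (1.86 ± 0.29, adjusted p = 6.78e-06, and 0.0666 by limma-trend), and Serpine2, a protease inhibitor (1.96 ± 0.42, adjusted p = 0.000474). Of 18 integrins 3 rose and 6 fell (median 0.01, and -0.42 among genes with at least 10 reads in every library). Itga3 and Itga5, a laminin and a fibronectin receptor chain, fell by 0.83 ± 0.12 (adjusted p = 2.04e-07) and 0.84 ± 0.11 (adjusted p = 3.04e-08). Itga7, the laminin receptor chain of muscle fibres, read 1722, 1721 and 1679.7 CPM and then 2399, 2340.1 and 2272 CPM (0.45 ± 0.08, adjusted p = 4.64e-05), and Itga8, another integrin chain, rose by 1.01 ± 0.20 (adjusted p = 0.000252, and 0.122 by limma-trend). Of 32 genes of TGF-beta and BMP signalling 1 rose and 5 fell (median -0.20), the falls including Smad7, an inhibitor of the pathway (-1.74 ± 0.34, adjusted p = 0.000104), and Fstl1, a secreted follistatin-like protein (-1.08 ± 0.09, adjusted p = 2.58e-15).

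In the insulin-like growth factor system, Igfbp5 (9q33), a binding protein of muscle, read 488, 417 and 502 CPM and then 3012, 2722 and 3598 CPM (2.73 ± 0.13, adjusted p = 6.77e-17). Igf1, the growth factor, read 7.13, 2.68 and 3.43 CPM and then 34.7, 26.7 and 39.9 CPM (2.88 ± 0.45, adjusted p = 1.07e-06). Igf2 read 1303, 1373 and 1400.3 CPM and then 1236, 1092 and 1100.4 CPM, and was not called (-0.25 ± 0.09, adjusted p = 0.0774). Of the 11 genes of the list 3 rose and 0 fell, with a median of 0.04 that changed sign without T14+RA replicate 2 or 3.

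Of 32 lysosomal genes 14 rose and 0 fell (median 0.39), 10 without T14+RA replicate 2 and 15 with the size trend removed. Ctsd, the protease cathepsin D, read 1836, 1686 and 1798 CPM and then 3099, 3297 and 2897 CPM (0.81 ± 0.09, adjusted p = 4.28e-11), and Grn, progranulin, read 718, 859 and 768 CPM and then 1411, 1507 and 1148 CPM (0.80 ± 0.10, adjusted p = 5.69e-09). Gpnmb (4q24), a membrane glycoprotein of lysosomes and melanosomes that is not on the list, rose from 401, 361 and 331 CPM to 1423, 1572 and 1414 CPM (2.01 ± 0.10, adjusted p = 9.81e-25). In cholesterol and fatty acid synthesis 2 of 34 genes rose and 3 fell (median -0.03), with 1 fall without T7+RA replicate 2 or 3. Scd, the desaturase that makes monounsaturated fatty acids, read 378, 387 and 394 CPM and then 1019, 1048 and 1196 CPM (1.49 ± 0.11, adjusted p = 4.2e-18), and Insig1, a brake on sterol synthesis, rose by 0.50 ± 0.11 (adjusted p = 0.000744).

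Further genes with the largest changes were of mixed function. Clu (15p12), the secreted chaperone clusterin, read 199.6, 187 and 195 CPM and then 754, 943 and 761 CPM (2.08 ± 0.12, adjusted p = 7.84e-23). Cp, the copper oxidase ceruloplasmin, rose by 2.10 ± 0.14 (adjusted p = 3.77e-20). Mgp, an inhibitor of calcification, read 4.28, 1.34 and 3.43 CPM and then 65.6, 102 and 56.2 CPM (4.57 ± 0.44, adjusted p = 1.19e-12), and Hsd11b1, which regenerates active glucocorticoid, rose by 3.64 ± 0.43 (adjusted p = 7.66e-10). Kng1, kininogen, was counted in 1 read at T7+RA (in replicate 2), in 103 reads at T14+RA and in 0 reads in the 9 other libraries. It thus passed the filter of the deposited table, at least 21 counts over the libraries, only through T14+RA. Its fitted log2 change of 6.08, or 7.95 without T7+RA replicate 2, is given as a description. On the falling side, Krt7 (7q36), a simple-epithelium keratin, read 199.6, 234 and 190.2 CPM and then 30.9, 36.1 and 34.4 CPM (-2.64 ± 0.18, adjusted p = 1.75e-18), and Krt80, another keratin, read 54.2, 67.1 and 39.4 CPM and then 8.68, 7.86 and 5.44 CPM (-2.80 ± 0.36, adjusted p = 1.4e-08). Cd200, a membrane ligand of the immunoglobulin family, fell by 2.40 ± 0.30 (adjusted p = 5.56e-09), Aif1l, an actin-binding protein, by 1.56 ± 0.15 (adjusted p = 2.46e-12), and Adamts8, a secreted metalloprotease, by 1.19 ± 0.11 (adjusted p = 1.07e-13). None of these pairs of groups overlapped, but no overlap was a condition for genes named by the size of their change.

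The remaining lists gave mixed or few calls. The smooth muscle contractile list held 4 rises and 8 falls among 22 (median -0.23), with 2 rises without T14+RA replicate 2. The NRF2 and antioxidant list held 8 rises and 5 falls among 26 (median 0.13), with 4 rises without T14+RA replicate 2 and 5 without T7+RA replicate 2 or 3 or T14+RA replicate 1 or with the size trend removed. Its falls were 2 without T7+RA replicate 1 and 3 without T7+RA replicate 3 or T14+RA replicate 1 or 3. The list of ER folding and amino acid stress held 1 rise and 5 falls among 29 (median -0.09), 3 falls without T7+RA replicate 1 or T14+RA replicate 1, and 0 rises without any 1 of the cultures other than T14+RA replicate 3 and with the size trend removed. The Wnt, Notch and YAP list held 3 rises and 4 falls among 27 (median -0.33, and -0.122 without T7+RA replicate 2), and the caveolae list 2 and 2 among 10 (median -0.10, and 0.03 with at least 10 reads in every library), 1 fall without T14+RA replicate 1. Of the interferon response and MHC class I list 2 of 22 rose (median 0.28), 0 without T14+RA replicate 2 and 1 without T7+RA replicate 3. Of 68 mitochondrial ribosomal proteins 1 rose (median 0.23), 0 without T7+RA replicate 3 or T14+RA replicate 1 or with the size trend removed. Of 30 proteasome genes 0 were called (median 0.14), and 2 rose without replicate 3 of T7+RA or of T14+RA.

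The second week without RA was set beside these values. It called 902 genes (7.79% of all genes), 486 higher and 416 lower at T14-RA. The 2 weeks share no library. Of the 1315 genes called with RA, 520 were also called without RA, 39.5% of the calls with RA and 57.7% of the calls without, and 516 of the 520 moved in the same direction. Of all calls with RA, 1196 (91.0%) had the same sign without RA. Genes that rose with RA had a median change of 0.81 with RA and 0.45 without, and genes that fell had -0.77 and -0.43, where the genes were chosen by their values with RA. Genes called without RA had medians of 0.67 with and 0.92 without for risers, and -0.62 and -0.66 for fallers. Pearson's r between the changes was 0.589 across 5931 genes with at least 10 reads in every library, where the points are genes and not replicates. It was 0.429 across all genes and 0.636 across 1544 genes with at least 50 reads in every library.

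Medians had opposite signs in the 2 weeks in 6 lists. The acetylcholine receptor and junction list had -0.20 with RA and 0.52 without, where 3 of its genes rose and 0 fell. Myogenic factors and fusion had -0.16 and 0.20, with 9 rises and 3 falls without RA. The NRF2 list had 0.13 and -0.13, the retinoid list 0.23 and -0.02, cytosolic ribosomal proteins 0.13 and -0.07, and the proteasome 0.14 and -0.03. With the size trend removed, the medians with RA were 0.069 (NRF2), 0.185 (retinoid), -0.044 (cytosolic ribosomal) and 0.08 (proteasome). The sign of the ribosomal list thus depended on that step, and medians without RA were not computed in that setting. Signs were equal in the other lists, marker lists aside. Among these, the median with RA changed sign under at least 1 alternative for integrins, matrix proteases, the insulin-like growth factor system, caveolae and cholesterol synthesis. The sarcomere list had a median of 1.63 with RA and 1.93 without, and excitation-contraction coupling 0.52 and 1.01. Mitosis had -1.20 and -0.92, with 44 and 38 falls, and DNA replication -0.69 and -0.57, with 14 and 13 falls. Complexes II to V had 0.61 and 0.29, with 32 rises with RA and 4 without, complex I 13 and 2, and lysosome 14 and 4. With the size trend removed, the rises with RA in these 3 lists were 29, 10 and 15. The counts without RA were not computed in that setting. The difference between the weeks was called in 0 genes of either respiratory list and in 3 lysosome genes (Ctsd, Grn and Ctsb, the last named after its value was seen, all more positive with RA). Tnnt3 ended at 1721, 2023 and 2052 CPM at T14-RA against 884, 913 and 948 CPM at T14+RA, and had stood at 386, 333 and 423 CPM at T7-RA, so its log2 changes were 2.34 and 2.56.

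The difference between the second weeks (the change with RA minus the change without, as an interaction in the same fit) was called in 86 genes, 0.743% of all genes, 33 with the more positive and 53 with the more negative change with RA. At an unadjusted p under 0.05 the difference gave 966 genes. The count of 86 was 51 without T7+RA replicate 3, 56 without T7+RA replicate 2 or T14+RA replicate 1 and 57 without T14-RA replicate 1. Of the 86, 71 were called with RA and 31 without. Ca3 (2q23), the muscle carbonic anhydrase, had the lowest p. It fell with RA, from 2319, 2386 and 2508 CPM to 1460.4, 1421 and 1299.8 CPM, and rose without RA, from 2683, 2595 and 3124 CPM to 6191, 6371 and 6184 CPM. The changes of -0.78 and 1.16 differed by -1.94 ± 0.12 (adjusted p = 1.65e-19). Akap12, a scaffold of protein kinase A, also had opposite called changes, -0.69 with RA and 0.41 without (adjusted p of the difference = 6.69e-06), and so did Mical2 and Vldlr, which were named after their values were seen, to make 4 genes in all. The call of Mical2 with RA (-0.56) was lost without T14+RA replicate 1 (-0.49, adjusted p = 0.0941).

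The difference was called in 3 of 38 sarcomere genes and 2 of 24 genes of excitation-contraction coupling, all more negative with RA, and in 3 genes of creatine and muscle glycolysis, 2 more negative and 1 (Ldhb) more positive. Klhl41, a protein of nascent sarcomeres, changed by 0.70 with RA and 1.82 without (adjusted p of the difference = 5.7e-06), and Mybph, a myosin-binding protein, by 1.61 and 2.45 (0.0112). Casq1 read 22.7, 18.8 and 15.98 CPM at T7-RA and 165, 168 and 164 CPM at T14-RA, a change of 3.09 against 0.53 with RA (adjusted p of the difference = 8.98e-06). Myoglobin (Mb), muscle phosphoglycerate mutase (Pgam2) and the adult fast myosin Myh4, which were chosen for mention after their values were seen, had changes of 4.47, 3.84 and 1.27 without RA and of 1.02, 0.91 and -0.27 with RA, and the difference was called in each (adjusted p = 0.000539, 0.00966 and 7.35e-06). Without T7+RA replicate 3 the change of Pgam2 with RA was 1.69 and was itself called. The other way round, Myod1 fell with RA (-1.19) and read -0.15 without (adjusted p of the difference = 0.0369).

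Other genes had a larger change with RA. Nid2 changed by -2.20 with RA and -0.10 without, after levels of 229, 203 and 186 CPM at T7-RA and 208, 179 and 189.7 CPM at T14-RA. Scd changed by 1.49 and -0.01, Gpnmb by 2.01 and 0.67, Clu by 2.08 and 0.76, and Igfbp5 by 2.73 and 1.14. The adjusted p of the difference was 3.06e-13, 5.11e-11, 4.74e-10, 1.45e-07 and 7e-07 for these 5 genes. Igf1 rose with RA from levels below those at T7-RA (45.3, 26.9 and 47.9 CPM) and read 36.0, 31.9 and 18.6 CPM at T14-RA, changes of 2.88 and -0.44 (adjusted p of the difference = 4.83e-05). Igf2 and Ccdc80 had the larger change without RA. Igf2 rose without RA (0.71) and read -0.25 with RA (7.25e-07). Ccdc80, a secreted matrix protein, fell without RA (-0.86) and read 0.05 with RA (7e-07).

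**Figure D4:**
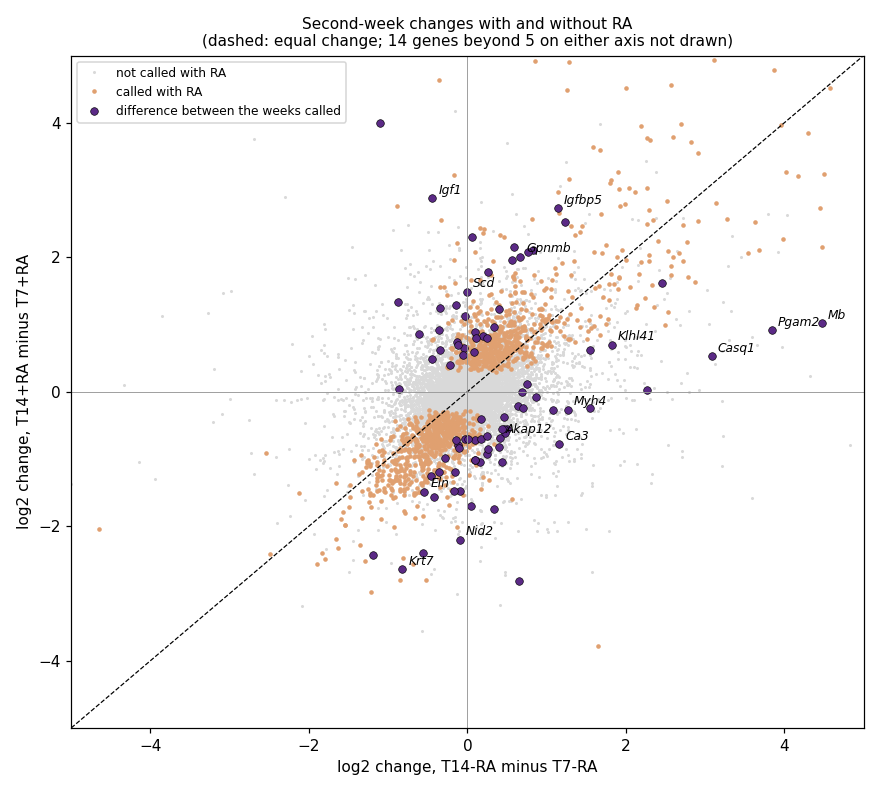
Log2 change of each gene in the second week without RA (horizontal axis) and with RA (vertical axis), with equal changes on the dashed line and 14 genes beyond 5 on either axis left out. The median change of genes that rose with RA was 0.81 with RA and 0.45 without, and of the 86 genes whose difference was called, Ca3, Casq1, Mb and Pgam2 lie below the line and Igf1 and Igfbp5 above.

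The first week with RA (T7+RA against T0) uses the same T7+RA cultures, so its values are only placed beside those of the second. Acta1 had read 52.4, 41.3 and 31.4 CPM at T0, and its log2 changes were 3.32 in the first week and 1.93 in the second. Top2a had read 310.4, 272 and 342 CPM at T0, with changes of -0.34 and -1.31. Eln had -2.11 and -1.49, Adamts8 2.67 and -1.19, and Akap12 2.25 and -0.69. Adamts8 and Akap12 thus stood above their T0 level at T7+RA and were lower again at T14+RA. Myh3 had 3.85 and 1.70, higher in both weeks.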

How the data were processed

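Poly(A)-selected, stranded RNA-seq libraries of 15 H9c2 cultures were used. The authors deposited raw read counts per gene for 11574 genes, with the largest transcript size and the chromosome band of each gene. Per the submitters' processing notes the tools were HISAT2 and featureCounts and the build was Rnor_6.0. Tool versions, and whether counting used strand, are not given in the sources used here, so overlapping, antisense and near-identical genes are uncertain. The table had been filtered, since no gene had fewer than 21 counts over the libraries, and 5931 genes had at least 10 counts in every library.

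Groups came from the labels. Counts were fitted with edgeR 4.0.16 (TMM scaling, quasi-likelihood test, R 4.3.3, prior count 2) with the means of 5 groups over all 15 libraries, which then shared 1 estimate of the spread, and Benjamini-Hochberg adjustment over all genes, with calls at an adjusted p under 0.05. The threshold of the study, 0.001, was an alternative. The difference between the second weeks was the interaction contrast. The script was tested on simulated data. CPM values use TMM library sizes and are not scaled for length. Cultures were separate replicates of a group in the study, 3 against 3, and an exact permutation test of a single gene could not go below a two-sided p of 0.10, so only the tests across all genes are given. P-values measure the spread between these cultures. Reads carry no molecular identifiers, so counting intervals and floors (3 counts per library) cover counting error only.

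Replicate numbers were shared across groups. They were not taken to pair the cultures. The named genes were those of largest change without overlap, of lowest p, up to 4 called genes per list and direction, those of lowest p for the difference, markers and genes that the study names. Members, gene lists and tests were chosen with earlier results of these data known, so no list is independent support. Alternatives used DESeq2 1.42.0, limma 3.58.1 (trend and voom), other scalings, filters on low counts, thinned counts, the 6 libraries alone, a replicate block and each culture left out. Promoters were taken from RefSeq (GRCr8), looked up first by Ensembl identifier and then by symbol or synonym. A few results are not reported here.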

Additional observations from a re-analysis of the deposited data

Results flagged for a closer look

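The test of the difference between the second weeks with and without RA (edgeR quasi-likelihood interaction, adjusted p under 0.05) called 86 genes, and the 35 of them that the text names drew attention because their change in the second week differed between cultures with and without RA. Each value is the log2 change with RA minus that without. The change with RA was the more negative in Ca3 (-1.94), Nid2 (-2.10), Igf2 (-0.95), Klhl41 (-1.13), Akap12 (-1.10), Ccnd1 (-0.87), Myh4 (-1.53), Casq1 (-2.56), Eln (-0.95), Itga3 (-1.23), Krt7 (-1.81), Mb (-3.45), Aif1l (-1.14), Mical2 (-0.99), Smad7 (-2.08), Adam12 (-1.23), Itga5 (-0.73), Pgam2 (-2.93), Mybph (-0.84), Chrnb1 (-1.08), Myod1 (-1.04), Cd200 (-1.84). It was the more positive in Scd (1.5), Gpnmb (1.34), Clu (1.32), Ccdc80 (0.90), Igfbp5 (1.59), Igf1 (3.32), Vldlr (0.93), Grn (0.69), Cp (1.27), Ctsd (0.56), Fmod (1.30), Ldhb (0.62), Ctsb (0.50). Ca3, Akap12, Mical2 and Vldlr were called in opposite directions in the 2 weeks, and the others were not called in both with opposite signs.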

How the results depend on the processing

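The second week with RA called 1315 genes, and 877 to 1615 under the other tests, scalings, filters, sets of libraries and thinned counts and 989 to 1253 with 1 culture left out. DESeq2 gave 877 genes with RA, 566 without RA and 63 for the difference. At an adjusted p under 0.001 the counts were 540, 342 and 25. The count for the difference lay between 51 and 85 with 1 culture left out. Removing the trend with transcript size, chosen after seeing the data, gave 1465, 1089 and 125 genes and kept 91.7% of the 1315. Deviations of same-numbered T7+RA and T14+RA cultures correlated at -0.02, 0.02 and 0.06, and not every culture correlated best with its own number. Over pairs from all groups the mean was 0.06 for the same number (highest 0.289) and -0.03 for different numbers (highest 0.119). The numbers were not used for pairing in the main fit, although the size tilt recurred by number outside T7+RA. The replicate block gave 1481, 1017 and 118 genes, and it made 1 named gene, Igf2, called with RA (adjusted p = 0.0357). The correlation of the changes was 0.429 over all genes and 0.636 over genes with at least 50 counts.

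Of 1892 values of the 114 named genes, 1873 kept direction and call, 17 lost the call (Sln, Rdh5, Chrnb1, Dhrs3, Mmp2, Itga8 and Mical2), 2 gained it (Igf2 and Pgam2) and 0 reversed. Of the list medians, 462 values moved by less than the spread and 65 by more. With at least 10 counts in every library, where fewer genes were tested, the medians were 0.951 (sarcomere), 1.072 (troponins), 0.282 (excitation-contraction coupling), -0.309 (acetylcholine receptor), 0.117 (retinoid), -0.655 (matricellular), 0.130 (proteases), -0.423 (integrins), -0.078 (insulin-like growth factor) and 0.027 (caveolae), and edgeR's own filter gave -0.152 for integrins. limma-trend gave 1.440 (sarcomere), 0.408 (excitation-contraction coupling) and -1.135 (mitosis). Thinned counts gave 0.434 (excitation-contraction coupling), 0.181 (retinoid), -0.680 (matricellular), 0.093 (proteases), -0.088 (integrins) and 0.169 (insulin-like growth factor). With the size trend removed they were 1.377 (troponins), 0.474 (excitation-contraction coupling), -0.087 (myogenic), 0.388 (complex I), 0.503 (complexes II to V), 0.185 (retinoid), -0.064 (collagens), 0.106 (integrins), 0.172 (insulin-like growth factor), 0.191 (interferon), -0.044 (cytosolic ribosomal) and 0.090 (mitochondrial ribosomal). With 1 culture left out the ranges were -0.047 to 0.125 (proteases), 0.090 to 0.252 (NRF2), -0.155 to -0.083 (myogenic), -0.721 to -0.614 (DNA replication), -0.065 to 0.006 (cholesterol), -0.647 to -0.374 (matricellular), -0.470 to -0.122 (Wnt), 1.536 to 1.769 (sarcomere), 0.424 to 0.574 (excitation-contraction coupling), 0.543 to 0.618 (fatty acid oxidation), 0.168 to 0.273 (retinoid), -0.131 to 0.066 (integrins), 0.192 to 0.350 (interferon), -0.279 to -0.165 (acetylcholine receptor), -0.314 to -0.187 (basement membrane), -0.319 to -0.155 (TGF-beta) and -0.096 to 0.074 (insulin-like growth factor). The cause of these shifts was not tested.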
